A study of Macaca mulatta with 38 samples.

Results

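Barcode composition was followed in the blood monocytes of 1 rhesus macaque while 6 barcodes went from a minor share to nearly all reads. 6 of the 38 libraries of the series were used, chosen by cell type and day: the monocyte libraries (Mono) of days 119, 187 and 266, here called before, and those of days 365, 494 and 553, here called after. The animal, ZL34, was a male of 4 years. Its own CD34+ blood stem and progenitor cells, mobilised with G-CSF and the agent that the labels spell AMD1300, had been transduced with a barcoded lentivirus library at a multiplicity of infection of 25 and returned after TBI (total body irradiation), and it received 5 mg/kg of cidofovir weekly. All of this holds for both groups, and there was no untreated or unbarcoded control. Each day has 1 library from the same animal, so the 3 libraries of a group are serial samples and not biological replicates. The spread and every p-value below describe only these days. The boundary between days 266 and 365 was drawn with the takeover known, so the direction of the main difference was fixed by it. The table holds barcode counts of DNA and no gene expression, so the label Mono could not be checked against marker genes.

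Monocytes circulate for a short time and are steadily replaced from the bone marrow, so the barcodes in them follow the recent output of stem and progenitor cells. A barcode is a short tag in the vector that enters the genome of a cell and passes to all its descendants. A cell that takes up several vector copies carries several barcodes, and these then travel together. The share of reads is relative. A lower share of a barcode and a larger output of the other barcoded cells cannot be told apart here.

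The 6 libraries had 2123287 to 3786747 reads in kept barcodes. No count from 1 to 100 occurs in the table, so a listed 0 was taken as at most 100 reads. That is at most 0.00264% of reads in the deepest of the 6 libraries (day 553) and 0.00471% in the shallowest (day 494). Days 119 and 365 could have shown a barcode down to 0.00382% and 0.00318%. Where 6 values of a barcode or group follow each other below, they are in the order of days 119, 187, 266, 365, 494 and 553.

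The leading barcodes were taken from other cells. They are the 6 with a mean of at least 5% of reads over the libraries of nucleated red cells (nRBC), so no monocyte library entered their choice, although all cells come from 1 animal. The nRBC libraries are of days 266 to 553, so the choice favours barcodes that are high late. Barcodes are numbered by their mean share over the 38 libraries. The leading 6 are shown because the takeover is theirs, bc11 because it went up beside them and then dropped out, and bc7 to bc10 because they led before. Lower case is the fixed start of the read and capitals are the variable part up to the sequencing adapter.
bc1: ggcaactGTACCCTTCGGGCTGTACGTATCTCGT
bc2: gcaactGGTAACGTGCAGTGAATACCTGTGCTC
bc3: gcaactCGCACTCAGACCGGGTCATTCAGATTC
bc4: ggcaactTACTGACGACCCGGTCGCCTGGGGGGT
bc5: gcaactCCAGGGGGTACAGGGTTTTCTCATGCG
bc6: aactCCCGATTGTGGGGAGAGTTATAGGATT
bc11: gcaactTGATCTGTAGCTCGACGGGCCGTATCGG
bc7: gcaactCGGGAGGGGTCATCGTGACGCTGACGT
bc8: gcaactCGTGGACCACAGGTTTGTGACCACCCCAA
bc9: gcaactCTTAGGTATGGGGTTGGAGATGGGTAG
bc10: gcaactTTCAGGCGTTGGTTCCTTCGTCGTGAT

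The variable part had 27 bases in 9 of these 11 barcodes, 28 in bc11 and 29 in bc8. The leading 6 are not spelling variants of each other. Their variable parts differed by 13 to 19 edits over the 15 pairs, and bc11 differed from them by 16 to 18. The fixed start differed as well, with an extra base in bc1 and bc4 and a shorter start in bc6. Of the other barcodes listed in any of the 6 libraries whose variable part could be found, none lay within 2 edits of a leading barcode, and the nearest lay 9 edits away, at days 187 and 266. The barcodes so compared were therefore not near copies of the leading 6.

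The leading 6 rose from the background of the monocyte barcodes to the whole of them. On days 119, 187 and 266 they together held 0.952%, 14.6% and 41.1% of reads, and on days 365, 494 and 553 they held 91.7%, 99.9% and 99.8%. Exact 95% binomial intervals were 0.940 to 0.964% at day 119 and 41.1 to 41.2% at day 266, and they cover counting error only. All 3 shares after lay above all 3 before. The mean was 18.9% ± 20.4 before and 97.1% ± 4.74 after (SD, n = 3 days each), a difference of 78.2 percentage points. A two-sided exact permutation test gave p = 0.1 (adjusted p = 0.1 over 3 measures), which is the smallest value that 3 against 3 libraries allow, so this comparison could not pass 0.05. The plot of composition by day shows the order in which barcodes held the lead.

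**Figure D1:**
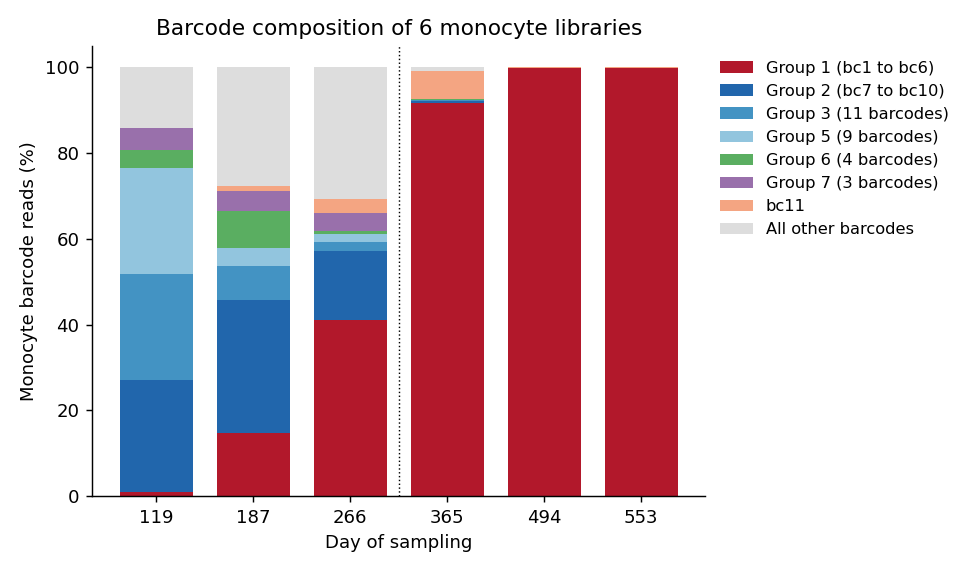
Stacked bars give the percent of monocyte barcode reads (y axis) held by groups of covarying barcodes, by bc11 and by all other barcodes at each of 6 days (x axis); the dotted line separates the days before and after. Group 1, the leading 6, goes from 0.952% at day 119 to 91.7% at day 365, group 2 is at its highest at day 187 with 31.2%, and bc11 is visible at days 187 to 365 only.

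No leading barcode was among the highest at first. At day 119 the 6 ranked between 51 and 57 of 808 listed barcodes, and each held 0.132 to 0.201% of reads. At day 187 they ranked between 6 and 13, with 1.98 to 2.72% each. At day 266 they filled ranks 1 to 6 with 6.23 to 7.49% each, and they kept these ranks at days 365, 494 and 553. The lead therefore passed to them between days 187 and 266, while they still held less than all other barcodes together.

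The shares of the 6 stayed close to each other throughout. bc1, the highest over the series, held 0.201%, 2.72%, 7.49%, 16.3%, 19.2% and 18.6% of reads. bc2 held 0.161%, 2.62%, 7.17%, 19.7%, 17.9% and 18.1% and was the highest at day 365. bc3 held 0.132%, 2.52%, 7.14%, 16.3%, 17.4% and 17.5%. From day 119 to day 187 the share of the single members was multiplied by 13.5 to 19.1, and from day 187 to day 266 by 2.57 to 3.37. The ratio of the highest to the lowest member was 1.52, 1.37 and 1.20 on the 3 days before.

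Day 365 was the exception to this evenness, and bc6 was the member that lagged. bc6, the barcode with the short fixed start, held 0.146%, 1.98%, 6.69%, 9.60%, 15.2% and 15.1% over the 6 days. bc4 held 0.171%, 2.42%, 6.23%, 16.6%, 16.1% and 15.7%. bc5 held 0.141%, 2.37%, 6.41%, 13.2%, 14.1% and 14.8%. Between days 266 and 365 the share of bc6 was multiplied by 1.44 and that of bc2 by 2.75, and the ratio of highest to lowest reached 2.05. bc6 was 10.5% of the sum of the 6 in monocytes at day 365, against 14.8% in granulocytes (Gr) of that day and 13.6 to 16.3% in the other 5 of these monocyte libraries. It was 9.67% in the monocyte library of day 32, where the 6 held little. A low bc6 was not confined to monocytes. At day 365 bc6 was the lowest of the 6 in T cells, with 1.86% of reads against 14.4% for the 6 together. The same held in B cells of that day, with 0.679% against 7.24%. In nRBC it was the lowest at day 309, with 8.06%, but not on the other nRBC days. At days 494 and 553 the ratio of highest to lowest was 1.36 and 1.26. These are single libraries with no test.

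The pace was followed as log2 odds, the log2 of the leading share over the share of everything else, which do not flatten as a share nears 100%. The log2 odds were −6.70, −2.54 and −0.52 before and 3.46, 10.27 and 9.37 after. The slope was 3.88 log2 units per 100 days. Pearson's r with day was 0.986 (two-sided exact permutation p = 0.00278, adjusted p = 0.00556, n = 6) and Spearman's rho 0.943 (two-sided exact permutation p = 0.0167, adjusted p = 0.0167), with the adjustment over log2 odds and percent. For the share in percent, r came to 0.955 (two-sided exact permutation p = 0.00833, adjusted p = 0.00833, n = 6), with the same rho. Without days 119 and 553, the 2 farthest from the median day, r was 0.990 for the log2 odds. The trend is a property of serial samples of 1 animal. The leading 6 were chosen by high shares in nRBC of days 266 to 553 of that animal. That choice favoured a rise with day in advance, so these p-values are no independent test of it.

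The log2 odds did not climb at 1 rate. They went up by 4.16 log2 units in the 68 days to day 187, a doubling every 16.4 days. From day 187 to day 266 they went up by 2.03, a doubling every 39.0 days, the slowest of the intervals in which they went up. The next 99 days, across the boundary between before and after, brought 3.98 units, a doubling every 24.9 days. In percentage points this interval held the largest step, 50.6 points, against 13.7 and 26.5 points in the intervals before it and 8.24 after it. From day 365 to day 494 the odds went up by 6.81 units, a doubling every 19.0 days. From day 494 to day 553 they went down by −0.90 units. This last step lay in bc11, which went from 0.0525% to 0.130% of reads. Reads outside the leading 6 and bc11 went from 0.0285% to 0.0213%. At the last 2 days the odds rest on few reads: 1720 and 5710 reads lay outside the leading 6. Reads in barcodes at 100 reads or fewer are missing from the share of everything else. The odds are therefore upper values, and the rise to day 494 may be overstated. Setting each 0 to 100 reads took the after minus before difference in leading share from 78.2 to 64.6 percentage points. That setting was not run for the pace or the slope. In these odds bc11 counts in everything else, and its share went up to day 365 and then dropped. Reads outside the leading 6 and bc11 held 55.5% at day 266, 1.85% at day 365 and 0.0285% at day 494. They were lower by 30.0 times over the first of these intervals and by 64.9 times over the next. The pace was not run without bc11, so the order of the intervals may rest on it.

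**Figure D2:**
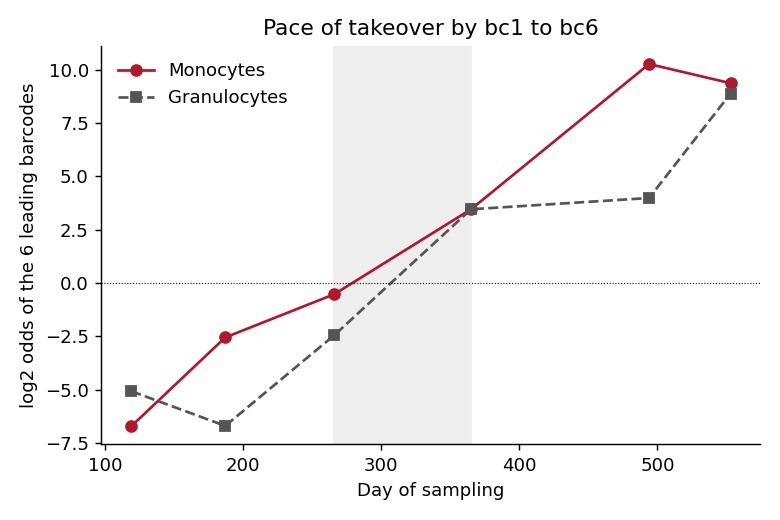
Lines join the log2 odds of the 6 leading barcodes (y axis; 0, the dotted line, is a share of 50%) by day of sampling (x axis) in monocytes and granulocytes, 1 library a point, with the interval from day 266 to day 365 shaded. Monocytes cross 0 between days 266 and 365, from −0.52 to 3.46, and granulocytes lie lower at days 187, 266 and 494.

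Granulocytes, the most closely related cells in the series, reached the same end by another path. Their log2 odds were −5.07, −6.69, −2.44, 3.46, 3.99 and 8.88 on the 6 days. Monocytes were ahead by 4.15 at day 187, by 1.92 at day 266 and by 6.28 at day 494, and behind by −1.63 at day 119. At day 365 the leading share was 91.7% in both. The mean difference was 1.87 log2 units (SD 2.91, n = 6 days), higher in monocytes on 4 of 6 days, and flipping its sign by day gave a two-sided exact permutation p = 0.188, where 6 days allow 0.0312 at best. Day 494 carried much of it, since the mean was 0.98 without that day (exact permutation p = 0.375). The gap of that day lay mostly in 1 barcode, bc11. It held 5.86% of granulocyte reads, which was 99.1% of those outside the leading 6. Without bc11, 0.0552% of reads lay outside the leading 6 in granulocytes and 0.0285% in monocytes. The test is of the level by day. The changes from day to day were not tested between the lineages.

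Before the leading 6, group 2 held the lead, and other sets of barcodes stood behind it. Of the 51 barcodes that reached 1% in some library of the series, 49 were joined into 8 groups by their covariation over all 38 libraries, these 6 included, so that members of a group move together by construction. The other 2, bc11 among them, stayed single. Group 1 is the leading 6. The other groups are described here and are not tested.

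Group 2, bc7 to bc10, had the highest sum of any group at days 119 and 187, with 26.1% and 31.2%. bc7 held 8.26%, 8.23% and 4.08% before and 0.136% at day 365, was then listed at 0, and held 0.00359% at day 553. bc8 held 7.98%, 7.75%, 3.96% and 0.139% and was listed at 0 on both last days. bc9 held 7.92%, 7.34%, 3.89%, 0.132%, 0 as listed and 0.00354%. These 3 ranked highest at day 119, and with bc10 they filled the first 4 ranks at day 187.

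bc10 joined its group late. It held 1.93%, 7.89%, 4.05%, 0.186%, 0.00485% and 0.00320% of reads. Its ratio to the mean of bc7, bc8 and bc9 in monocytes was 0.239 at day 119, 1.02 on days 187 and 266, and 1.37 at day 365. In granulocytes the same ratio was 0.212, 0.393, 0.414 and 1.02 on these days, and in T cells it was 0.127, 0.954, 0.956 and 1.11. Monocytes were thus near 1 at day 187, as T cells were, when granulocytes were still under 0.5. This ratio was singled out after its values were seen.

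Groups 3 and 5 were highest at day 119 and had given way by day 187. Group 3, 11 barcodes with bc12 the largest over the series, held 24.8%, 7.82% and 2.18% before and 0.165% at day 365. bc12 held 3.51%, 1.11%, 0.282% and 0.0279% on these days, and bc16 held 3.28%, 1.01%, 0.230% and 0.0140%. Group 5, 9 barcodes, held 24.7%, 4.30%, 1.97% and 0.0641%. All 20 members of these groups were listed at 0 at days 494 and 553.

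Groups 6 and 7 followed other courses. Group 6, 4 barcodes with bc25 among them, held 4.39%, 8.51% and 0.612% before and 0.0660% at day 365. bc25 held 1.08%, 2.77%, 0.175% and 0.0172%. Group 7, which is bc22, bc27 and bc29, held steady until the takeover, at 5.00%, 4.74% and 4.09% on the 3 days before, and held 0.120% at day 365. bc29 had 1.46%, 1.61% and 1.47% before and 0.0314% at day 365. Members of groups 6 and 7 were listed at 0 on both last days.

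**Figure D3:**
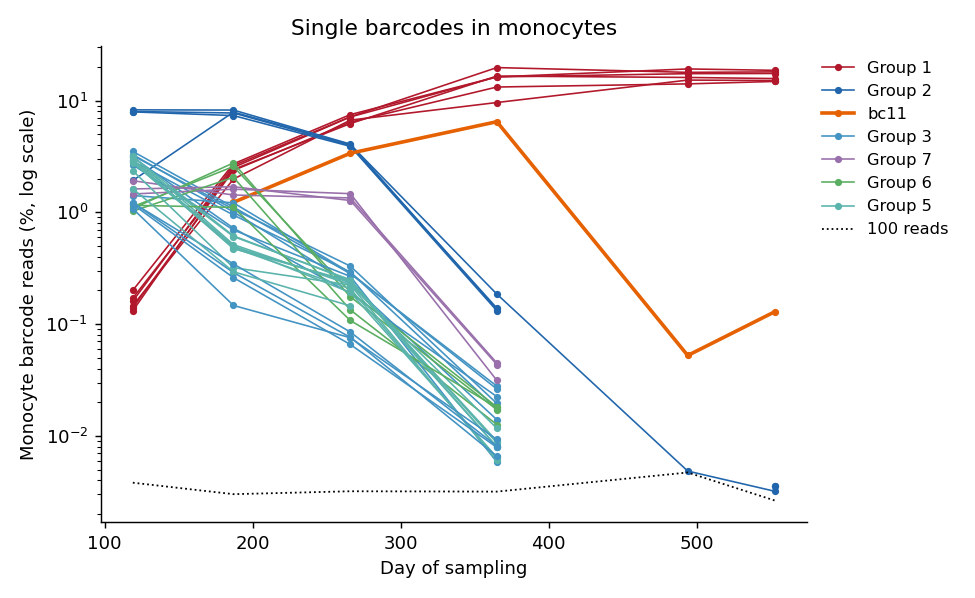
Each line is 1 barcode, with its percent of monocyte reads on a log scale (y axis) against day of sampling (x axis), coloured by group; a listed 0 is left out and the dotted line marks 100 reads. The leading 6 (group 1) run together from 0.132 to 0.201% at day 119 to over 14% at day 494. Groups 2, 3, 5, 6 and 7 are lower at day 365 than at day 266. Group 6 had dropped before, from a sum of 8.51% at day 187 to 0.612% at day 266. bc11 turns from 6.47% at day 365 to 0.0525% at day 494.

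bc11 accompanied the leading 6 and was then lost from the front. It was listed at 0 on days 32 and 119. From then on it held 1.23% (day 187), 3.38% (day 266) and 6.47% (day 365), and on the last 2 days it held 0.0525% and 0.130%. It was the highest of the 2510 barcodes newly listed at day 187. Set against the sum of the leading 6 it stood at 8.40%, 8.22% and 7.06% on the first 3 of these days, and then at 0.0525% and 0.130%. From day 365 to day 494 its share was divided by 123. In granulocytes bc11 was listed at 0 at day 187 and held 0.0738%, 7.95%, 5.86% and 0.151% at days 266, 365, 494 and 553. It was therefore 112 times as high in granulocytes as in monocytes at day 494, and 0.151% against 0.130% at day 553. In nRBC it went from 0.483% (day 266) to 6.09% (day 309) and 0.0538% (day 393). These are single libraries, so no test was made.

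The composition outside groups 1 to 8 and outside bc11 was a wide tail of rare barcodes. Barcodes that never reached 1% in any library made up 13.8%, 27.5% and 30.6% of monocyte reads on the 3 days before, with 766, 3033 and 3629 of them listed. By day 365 they were down to 148, with 0.714%. At day 494 there were 4 of them with 0.0237%, and at day 553 there was 1, bc2361, with 0.00283%. The tail therefore widened while the leading 6 gained before day 266, and it thinned afterwards. The highest single barcode of the tail held 0.847% at day 119 and 0.507% at day 266.

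More barcodes left the list between days 266 and 365 than in any other interval among the 6 libraries. Of the 3670 barcodes listed at day 266, 152 were listed at day 365, which is 4.14% of the earlier and 77.2% of the later list. The 3518 that were no longer listed had held 27.5% of reads at day 266. In contrast, 1733 barcodes were shared between days 187 and 266, which is 56.3% of the earlier list and 47.2% of the later. Of the 197 barcodes listed at day 365, 10 were listed at day 494, and 8 were listed at both days 494 and 553. The lower limit of listing was similar at days 266 and 365, at 0.00320% and 0.00318% of reads. However, the 3634 barcodes outside the leading 6 that held under 0.1% at day 266 had a median of 0.00549%, little above that limit. All reads outside the leading 6 and bc11 were lower by 30.0 times at day 365. A barcode that left the list may therefore still have been present under the limit.

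Measured in reads, the libraries kept changing up to day 365 and hardly changed after day 494. The summed overlap of shares between neighbouring days, which is 100% for identical libraries, was 52.5% from day 119 to day 187 and 54.0% from day 187 to day 266. It was 46.1% from day 266 to day 365, 89.4% from day 365 to day 494 and 98.9% from day 494 to day 553. Barcodes newly listed at day 187 held 19.4% of its reads and those newly listed at day 266 held 11.7%. Those newly listed at day 365 held 0.284%, so nearly all reads of day 365 came from barcodes already listed at day 266. All but 1.85% of the reads of day 365 lay in the leading 6 and bc11, so this says little about the other barcodes.

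Outside the leading 6, 30 barcodes held at least 0.1% at day 266, and 29 of them held less at day 365. bc11 was the one that held more. The 30 were chosen by their share at day 266, and all reads outside the leading 6 went from 58.9% to 8.32%. Lower shares for most of them were thus favoured in advance. For the 28 others listed on both days, the share at day 266 was 6.00 to 46.8 times that at day 365, with a median of 26.1. All reads outside the leading 6 and bc11 together were lower by 30.0 times. The members of group 2 were 21.8 to 30.0 times lower and those of group 7 29.3 to 46.8 times. Group 6 lay at the low end, with 6.00 to 10.7 times for its 4 members, and 7 members of group 3 ran from 8.38 to 45.7 times. bc44, of group 5, went from 0.146% to a listed 0, which is at least 45.9 times lower. bc44 was named after its values were seen.

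**Figure D4:**
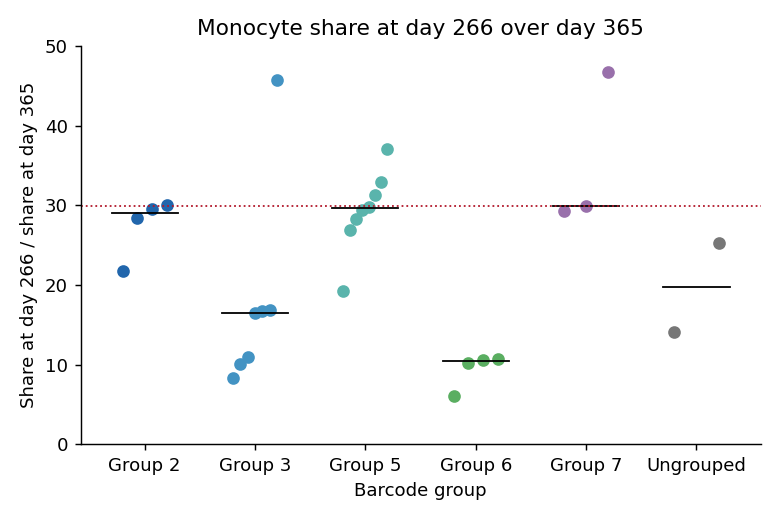
Points give, for 28 barcodes of at least 0.1% at day 266 other than the leading 6 and bc11, the monocyte share at day 266 divided by that at day 365 (y axis), by group (x axis); black bars are medians and the dotted line is the ratio for all such reads together, 30.0. Group 6 lies lowest, between 6.00 and 10.7, and group 2 lies between 21.8 and 30.0.

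Groups 4 and 8, which hold their largest shares in T cells, were listed in monocytes at day 365 at a small part of their T level. Group 4 (7 barcodes, bc15 and bc18 among them) held at most 0.0212% on any day before, with 3 of 7 members listed, and at day 365 it held 0.0940% with 7 of 7 members listed. In T cells of day 365 it held 7.46%, so its monocyte share was 1.26% of its T share. For group 8, another set high in T cells, the monocyte share was 0.0357%, or 1.72% of its T share of 2.07%. Group 8 had been listed before as well, at 0.324% with 5 of 5 members at day 119, and its monocyte share was 5.41%, 0.617% and 0.350% of its T share on the 3 days before. In group 4 this quotient was 0%, 0.537% and 0.204% before. At day 365 it was 2.37% in group 3, 3.20% in group 6, 3.59% in group 5, 3.71% in group 2 and 12.1% in group 7. At day 266 it had been 25.7%, 21.2%, 89.5%, 70.8% and 324%. The part of T cells among the sorted monocytes in these shares was not tested.

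Of the barcodes still listed outside the leading 6 at day 365, more were also listed in T and B cells than in granulocytes, whose list was far shorter. There were 191 of them. 166 (86.9%) were listed in T cells of the same day, which listed 3530 barcodes, and 184 (96.3%) in B cells, which listed 8288. 35 (18.3%) were listed in granulocytes, which listed 69. Only 63 of those 69 lay outside the leading 6, so no more than 63 of the 191 could be shared. At day 266 the shares of the 3664 outside barcodes also listed had been 34.6% in T, 58.2% in B and 70.4% in granulocytes, which listed 4871. The overlap with a lineage moves with the length of its list, so these shares do not rank the lineages, and no test was made.

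What remained at day 365 was mostly bc11. It made up 77.7% of the 261982 reads outside the leading 6, and group 2 came next with 0.593% of all reads. bc22 held 0.0450%, bc27 0.0436%, bc29 0.0314%, bc12 0.0279% and bc24 0.0263%. Without bc11, the remaining 190 barcodes held 1.85% of reads.

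At day 494 only 6 barcodes were listed outside the leading 6, with 0.0810% of reads. bc11 had 1114 reads, bc3296 136, bc1571 126, bc641 124, bc1853 117 and bc10 103. All but bc11 lay just above the 100 reads at which listing starts, so which barcodes were listed beside bc11 was set by small differences in reads. bc3296, bc1571, bc641 and bc1853 had each been listed in monocytes at day 266, at 0.00390%, 0.0127%, 0.0313% and 0.0115%. In T cells of day 494, where a 0 allows up to 0.0131% of reads, these 4 were listed at 0 and bc10 held 3.97%.

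At day 553 the 7 barcodes outside the leading 6 held 0.151%. bc11 had 4904 reads, or 85.9% of them. The others were bc18 with 197 reads, bc7 with 136, bc9 with 134, bc10 with 121, bc15 with 111 and bc2361 with 107. In T cells of that day bc18 held 1.72%, bc15 1.42%, bc7 1.74%, bc9 1.62% and bc10 1.61%, while bc2361 was listed at 0. So 5 of the 6 barcodes beside bc11 held over 1% of T reads on the same day, unlike at day 494, where 1 of 5 did.

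Over the 6 libraries 5148 barcodes were listed. 4948 were listed before only, 168 before and after, and 32 after only. 7 were listed in all 6 libraries, which are the leading 6 and bc10. Of the 32 listed after only, 29 had been listed in T cells at day 365 or earlier (90.6%). So had 158 of the 168 listed before and after (94.0%) and 55.6% of those listed before only. The highest of the 32 held 0.0179% of monocyte reads. No barcode listed after only thus reached 0.1%.

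The barcodes that had filled the monocytes before were not gone from the animal. 55 barcodes outside the leading 6 reached at least 0.1% in a monocyte library before, and together they held 94.1%, 60.5% and 29.2% of monocyte reads on the 3 days before. They held 7.57% at day 365, with bc11 among them, and 0.0573% and 0.140% at days 494 and 553, when 2 and 4 of the 55 were listed. Most of this was bc11, which alone held 6.47%, 0.0525% and 0.130% at days 365, 494 and 553. T cells listed 54 of the 55 at day 365, with 32.2% of reads. They listed 50 on each of the last 2 days, with 29.1% and 13.1%. In B cells 18 were listed at day 553 with 0.344% of reads, and in granulocytes 5 with 0.175%, of which bc11 held 0.151%. The CD34p library of day 553 listed 3, with 0.140%.

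Diversity after the takeover was close to that of the 6 alone. The effective number, which is the number of equally frequent barcodes with the same Shannon entropy, was 49.7, 145 and 145 before and 7.65, 6.01 and 6.03 after. The log2 difference was −3.96 (two-sided exact permutation p = 0.1, adjusted p = 0.1, n = 3 a group). Within the 6 the effective number was 5.87 to 5.99 on all 6 days. With each group of covarying barcodes counted as 1 unit, a setting added after the data were seen, the effective number was 10.2, 47.1 and 48.1 before and 1.48, 1.01 and 1.01 after.

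The barcodes outside the leading 6, taken as a whole of their own, were also less diverse after, though this rested on bc11 at day 365. Their effective number was 48.1, 154 and 425 before and 4.57, 3.37 and 1.93 after, a log2 difference of −5.57 (two-sided exact permutation p = 0.1, adjusted p = 0.1, n = 3 a group). With bc11 left out as well, it was 48.1, 154 and 487 before and 85.2, 4.98 and 5.86 after. Day 365 then lay between days 119 and 187, and the log2 difference was −3.50 (exact permutation p = 0.2, n = 3 a group). Few reads stand behind the values of days 494 and 553, where barcodes under 101 reads are not listed.

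No single barcode passed the test between the groups. edgeR's quasi-likelihood test, run on the 56 barcodes that reached 0.05% in 2 or more of the 6 libraries, called 0% higher and 0% lower after at an adjusted p under 0.05, with 13 barcodes at an unadjusted p under 0.05 and a lowest adjusted p of 0.0898. DESeq2 called 11 of the 56, which are the leading 6 as higher and 5 others as lower. By edgeR the leading 6 had log2 changes of 2.18 to 2.48 with adjusted p of 0.190 to 0.247, and bc7 had −7.20 ± 3.24 (SE, adjusted p = 0.139). All 3 libraries after lay above all 3 before for 10.7% of the 56 barcodes, and these 6 are the leading 6. They lay below for 75%, which is 42 barcodes. At days 494 and 553 no barcode outside the leading 6 other than bc11 reached 0.05%. The others could therefore pass the filter only with a library before, which favoured lower values after.

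The count of calls turned on the library of day 365. Without it edgeR called 49 of 56 barcodes lower and 0 higher, and without day 266 it called 9 of 54 lower. With each 0 set to 100 reads 49 of 56 were called lower, and with the filter at 0.01% 266 of 418 were. The filters shaped these counts of lower barcodes in the same way. The median log2 change over the 56 barcodes was −7.62, and −2.06 with TMM factors, under which the leading 6 had 4.46 to 5.31. Under each setting run, the leading 6 were higher after by point estimate, and bc11 was −4.08 without day 365 against 0.53 with all libraries.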

How the data were processed

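The deposited table gives read counts for 44423 sequences (50 bases each) in 38 libraries. Per the labels' protocols, 28 cycles of PCR on 200 ng of DNA retrieved the barcodes. How reads were then sequenced, assigned to barcodes, merged or dropped was not given in the sources used here. In the table, 101 was the smallest count above 0. PCR reads carry no molecular identifiers, so intervals cover counting error only.

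Counts were used as deposited, as percent of the column sum. The 6 monocyte libraries were tested by exact permutation (scipy 1.17.1) and by edgeR 4.0.16 with scaling by column sums, with DESeq2 1.42.0 as an alternative. edgeR was checked on simulated counts in which most barcodes were unchanged and no lower limit of listing applied, unlike here. That check says little about the calls above. Edits between barcodes were counted with edlib 1.3.9.post1. Other alternatives were TMM factors, other filters, each 0 set to 100 reads, the inverse Simpson index, thinning, and each library left out.

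Named barcodes were the leading 6, those of at least 5% in a monocyte library, the 5 highest of each library and the 10 highest outside the leading 6 in each library after. Up to 5 edgeR calls in each direction with at least 0.5% of reads would have been added. The members, lists and groups were chosen with earlier results of these data known. The labels name no batch.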

Additional observations from a re-analysis of the deposited data

Results flagged for a closer look

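The monocyte library of day 32 entered none of the comparisons. The leading 6 held 0.256% of its reads, above what listed zeros allow, with 6 of 6 members listed between 0.0181% (bc4) and 0.0650% (bc1). bc11 was listed at 0 there, which allows up to 0.00520% of reads.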

How the results depend on the processing

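The leading share, both log2 effective numbers, the difference from granulocytes and the slope kept their direction under every alternative run, and the slope stayed past 0.05. The slope was not run with each 0 set to 100 reads, and its barcodes were chosen from nRBC libraries of day 266 and later. Leaving out 1 library gave differences of 69.3 to 89.4 percentage points in the leading share, −4.48 to −3.70 in log2 effective number and −6.37 to −4.80 in that outside the leading 6. These 3 tests could not pass 0.05 at any setting, nor could the difference from granulocytes with a day left out, so their side of 0.05 shows no stability. The slope was 3.59 to 4.33 log2 units per 100 days with a library left out. Barcodes called by edgeR were 0 of 56 as reported and with TMM factors, and 0 of 5148 with no filter. They were 266 of 418 with the filter at 0.01% and 49 of 56 with each 0 set to 100 reads. DESeq2 called 11 of 56. With a library left out edgeR called 0 to 49, with 40 to 56 tested. The change of bc11 ran from −4.08 to 1.85 with a library left out, and turned sign without day 119 or day 365. No paired analysis was possible between before and after because they share no day. Monocytes and granulocytes were matched by day. With no replicate block the mean difference was the same 1.87 log2 units with exact permutation p = 0.621, and with a day left out it was 0.98 to 2.57. Barcodes at 100 reads or fewer could not be seen, which limits the counts at days 365, 494 and 553.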
